A study of Mus musculus with 15 samples.

Results

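The genes of the mitochondrial respiratory chain and ATP synthase were measured by RNA-seq in whole liver of female C57BL/6 mice. The members were taken by name from the gene annotation. They were the protein-coding genes whose symbols begin with Nduf (but not Ndufaf, the assembly factors), Uqcr, Cox4 to Cox8 or Atp5, together with Sdha, Sdhb, Sdhc and Sdhd, and, as a separate class, the protein genes of the mitochondrial genome. The rule found 101 members among the 37991 genes of the count table, of which 88 were nuclear-encoded and 13 mitochondrially encoded. There were 3 groups of 5 mice each, with 1 library per animal: young WT (90 d), old WT (600 d) and old KO (600 d). Old KO mice lacked S6K1, the kinase encoded by Rps6kb1, through a germline deletion in every tissue. WT and KO mice came from heterozygous breeding and were kept on chow, and no young KO group was measured, so genotype was compared in old mice alone.

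The respiratory chain passes electrons from NADH and succinate to oxygen through complexes I to IV and uses their energy to pump protons out of the mitochondrial matrix. ATP synthase (complex V) lets the protons back and makes ATP. Most subunits are encoded in the nucleus and imported, whereas a core set is encoded in the mitochondrial genome, which contributes to every complex but complex II. Liver cells that oxidize fatty acids and make glucose rely on this system.

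Of the nuclear-encoded members, 39 carried complex I names, 4 complex II, 8 complex III, 19 complex IV and 18 complex V names. After a filter on low counts, 14258 genes were tested, among them 81 nuclear-encoded members (38, 4, 8, 14 and 17 per complex) and 12 of the 13 mitochondrially encoded members. The 8 untested members were Cox4i2, Cox6a2, Cox8b, mt-Nd4l and the gene copy Atp5l-ps1, which had few counts, and Cox7b2, Cox8c and a second identifier of Ndufb8, which had 0 counts in all libraries. Some names do not match function: Ndufa4 is now known as a subunit of complex IV, and Cox4nb, Atp5s and Atp5sl are not structural subunits of these complexes, which leaves 78 subunits among the nuclear-encoded members tested.

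Total counts per library lay between 21801754 and 38065359. Levels are given as CPM (counts scaled to a common library size, with TMM factors), changes as log2 fold changes from edgeR with their standard errors (SE), and adjusted p is Benjamini-Hochberg over all genes tested in edgeR's quasi-likelihood test, with 0.05 as the threshold. The targeted gene followed the labels, since Rps6kb1 lay at 15.2 to 20.8 CPM in old KO livers and at 33.3 to 45.4 CPM in the WT livers of both ages (log2 fold change old KO against old WT −1.17, SE 0.0979, adjusted p = 8.54e-06). A pair of libraries stood apart for the nuclear-encoded members. Their mean log2 CPM, set against the young WT mean, was −0.212 in young WT 6 and 0.015 to 0.113 in the other young WT libraries, and it was −0.156 in old KO 1 and 0.068 to 0.144 in the other old KO libraries. Counts of calls are therefore also given without both libraries. This setting was chosen after the data were seen, from the members' own values. Leaving out a low young WT and a low old KO library raises both group means, which favours a fall with age and a rise with genotype. Old WT 1 (−0.165) and old WT 4 (−0.167) lay as low and were kept, so the setting is one-sided and gives no separate support.

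The stretch before the start site is shown for a few nuclear-encoded members because many genes of this system carry binding motifs of shared regulators there. Of the 81 nuclear-encoded members tested, 68 were matched to a RefSeq promoter (build GRCm38.p6, a later build than that of the counts). The 120 bases before the start are printed 5′ to 3′ on the gene's strand, all from the minus strand, with motif matches in capitals. Ndufs5, Cox7a2 and Cox7c were picked among the members that passed a test, Sdha and Sdhd among complex II, all after their matches had been seen.
Ndufs5 (chr4:123718187-123718306): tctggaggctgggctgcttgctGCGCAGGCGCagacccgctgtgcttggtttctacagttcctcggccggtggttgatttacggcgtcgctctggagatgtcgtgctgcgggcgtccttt
Sdhd (chr9:50603850-50603969): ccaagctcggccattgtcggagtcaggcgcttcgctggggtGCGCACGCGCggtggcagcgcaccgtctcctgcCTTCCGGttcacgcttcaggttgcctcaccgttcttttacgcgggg
Sdha (chr13:74350241-74350360): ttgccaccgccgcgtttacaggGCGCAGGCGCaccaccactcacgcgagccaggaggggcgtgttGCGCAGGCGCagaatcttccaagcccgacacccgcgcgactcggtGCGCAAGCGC
Cox7a2 (chr9:79759854-79759973): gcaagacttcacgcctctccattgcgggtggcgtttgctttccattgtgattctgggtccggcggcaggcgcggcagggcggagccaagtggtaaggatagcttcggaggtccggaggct
Cox7c (chr13:86046796-86046915): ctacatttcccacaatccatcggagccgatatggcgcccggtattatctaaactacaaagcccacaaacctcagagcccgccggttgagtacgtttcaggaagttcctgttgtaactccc

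In these stretches, Sdha held 3 matches to the letters of NRF1 (nuclear respiratory factor 1), Sdhd held 1 match to NRF1 and 1 to the ETS family motif that GABP binds, Ndufs5 held 1 to NRF1, and Cox7a2 and Cox7c held no match. Over the whole window of 250 bases before to 50 after the start, searched on both strands, the NRF1 letters (GCGCA, then any base, then GCGC) occurred in 17 of 68 members (25.0%) and in 5.19% of the 27025 genes with a promoter. This wider spelling was adopted after a narrower one, with T as the free base, had been counted, which occurred in 5 members (7.35%) and in 1.07% of genes. The GABP letters CCGGAAG occurred in 16 members (23.5%; 9.93% of genes), the YY1 letters AAGATGGCG in 8 (11.8%; 1.64%) and the letters TCAAGGTCA of estrogen-related receptors in 2 (2.94%; 0.466%). Any of the 4 occurred in 35 members (51.5%) and in 15.5% of genes. Among the 9739 tested genes with a promoter, the shares were 10.7% for NRF1 (2.27% for the narrower spelling), 18.4% for GABP, 3.29% for YY1, 0.339% for estrogen-related receptors and 29.0% for any. A match is a description of the letters and not a measured binding site.

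The mitochondrial messages are cut from long transcripts, and in places the coding parts of neighbours overlap. The longest overlaps on the same strand are shown because reads there belong to either gene. Besides these, mt-Nd5 and mt-Nd6 share 14 bases on opposite strands, and mt-Atp6 and mt-Co3 share 1 base. The overlap, in capitals, is flanked by 24 bases on each side, on the plus strand of NCBIM37.
mt-Atp8 and mt-Atp6 (chrM:7903-7993): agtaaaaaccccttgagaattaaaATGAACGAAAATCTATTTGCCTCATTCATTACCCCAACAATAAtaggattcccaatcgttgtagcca
mt-Nd4l and mt-Nd4 (chrM:10143-10197): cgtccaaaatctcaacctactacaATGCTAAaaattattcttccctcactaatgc

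The first overlap spans 43 bases (7927 to 7969) and the second spans 7 bases (10167 to 10173). Levels per length differed strongly within these pairs. Per kilobase of exonic length and averaged over the 15 libraries, mt-Atp8 averaged 210 CPM per kilobase against 2910 for mt-Atp6, and mt-Nd4l averaged 0.0423 CPM per kilobase (6 counts in all) against 10100 for mt-Nd4. The overlap covers 43 of the 204 bases of mt-Atp8 and 7 of the 297 bases of mt-Nd4l, so most of each gene lies outside it. How reads in an overlap, or reads that map to several places, were assigned is not given in the sources used here. The levels of mt-Atp8 and mt-Nd4l are therefore uncertain, and the reason for their low values was not tested.

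The mitochondrially encoded members were the most abundant class. Their median level was 8940 CPM per kilobase, from mt-Atp8 at 210 to mt-Co1, the catalytic core subunit of complex IV, at 16400. The nuclear-encoded members had a median of 51.4 CPM per kilobase. Complex III had the highest median of the nuclear-encoded groups (101), followed by complex II (97.5), complex IV (76.2), complex V (50.3) and complex I (38.2). The highest level in each was that of Ndufa4 (385, under a complex I name), Sdhd (163), Uqcrfs1, the Rieske iron-sulfur protein (133), Cox4i1 (360) and Atp5a1, the alpha subunit of the catalytic head (291).

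**Figure D1:**
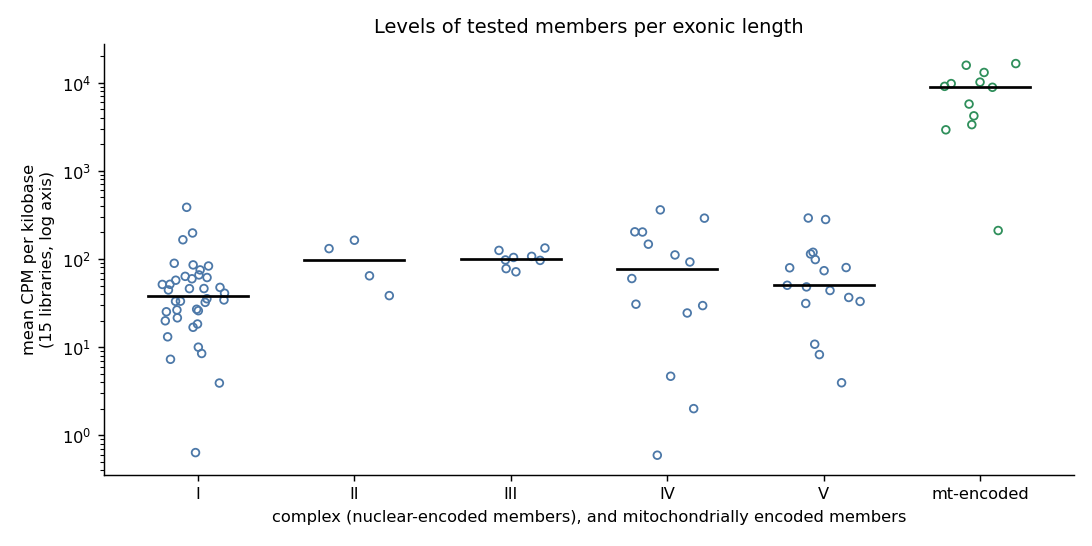
Level of each tested member in mean CPM per kilobase over the 15 libraries (log axis), by complex for nuclear-encoded members and for the mitochondrially encoded class. Each circle is a gene and each line a median. The median is 51.4 over all nuclear-encoded members and 8940 over the mitochondrially encoded ones, whose lowest gene, mt-Atp8, stands at 210.

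Liver used the ubiquitous isoforms of complex IV subunits. Cox4i1 lay at 211 to 286 CPM in every library, whereas its hypoxia- and lung-associated counterpart Cox4i2 had 3 counts over all young WT, 13 over all old WT and 3 over all old KO libraries (exact permutation test, 2-sided, p = 0.135 for age and 0.198 for genotype; the smallest p that 5 against 5 allows is 0.00794). The pairs with a heart and muscle form split in the same way. Cox6a1 averaged 203 CPM per kilobase and Cox6a2 averaged 0.0457, Cox8a averaged 202 and Cox8b averaged 0.0775, and Cox6b1 averaged 290 where its testis form Cox6b2 averaged 0.596. Cox7a1, the muscle form, averaged 2.01 CPM per kilobase. Ndufa4l2 averaged 0.638 against 385 for Ndufa4. Defining markers of cardiac muscle summed to at most 0.835 CPM, with Myh6 at 0 in all libraries, and those of adipocytes to at most 0.716 CPM.

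With age in WT mice, a minority of nuclear-encoded members fell and none rose. Ndufs1, Ndufs5, Cox7c, Cox7a2 and Atp5a1 were lower in old WT than in young WT livers by 0.20 to 0.33 on the log2 scale, 5 of the 81 tested members (0 higher), against 18.8% of all 14258 genes (9.92% higher and 8.91% lower). The direction was shared more widely than the calls. The log2 fold change was below 0 in 63 of 81 members and above 0 in 22.2%, where 51.2% of all genes tested lay above 0. The median change was −0.10 (range −1.44 to 0.42) beside 0.01 for all genes. At an unadjusted p under 0.05 there were 13 members, beside 33.0% of all genes. In bulk liver, fewer cells of a type and less RNA per cell cannot be told apart.

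Ndufs1 is the large iron-sulfur subunit that carries electrons inside the NADH-oxidizing arm of complex I, and it lies on chr1:63190170-63223396 (NCBIM37, minus strand). It measured 139, 133, 139, 136 and 144 CPM in young WT 1, 2, 3, 4 and 6, 115, 123, 111, 114 and 115 CPM in old WT 1, 4, 5, 7 and 10, and 112, 127, 118, 125 and 123 CPM in old KO 1, 2, 4, 5 and 6. Every young library lay above every old one of either genotype. The change with age was −0.25 (SE 0.0596, adjusted p = 0.00899), and it passed the threshold in each of the 15 fits that left out 1 library. A non-coding gene on the opposite strand, Gm11602, shares 14695 bases with it.

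Ndufs5, an accessory subunit of the membrane arm of complex I (chr4:123389953-123395445, minus strand), measured 19.9, 19.3, 17.8, 18.5 and 18.4 CPM in young WT, 15.6, 15.3, 17.7, 16 and 16.9 CPM in old WT and 19.8, 18.8, 20.4, 21.8 and 21.8 CPM in old KO libraries, in the order given for Ndufs1. Old WT was the lowest group, without overlap with either other group. The change with age was −0.20 (SE 0.0692, adjusted p = 0.0499), and it passed the threshold in 1 of 15 fits with a library left out. Its promoter stretch, shown above, held a single NRF1 match.

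Both complex IV members that fell with age are small subunits without a redox centre. Cox7c (chr13:86184421-86186509, minus strand) measured 35.9, 31.4, 27.6, 30.6 and 30.6 CPM in young WT, 21.8, 23.9, 28.4, 24.4 and 26.1 CPM in old WT and 21.8, 26.7, 27.8, 26.9 and 30.4 CPM in old KO libraries. Its change with age was −0.33 (SE 0.0961, adjusted p = 0.0279), with 1 old WT library reaching into the young range. This change passed the threshold in 10 of 15 fits with a library left out. A snoRNA annotated on the same strand, snoZ39, shares 60 bases with Cox7c.

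Cox7a2, the liver form of the subunit whose muscle form is Cox7a1 (chr9:79603048-79607660, minus strand), measured 83.8, 73.2, 82.0, 71.3 and 62.8 CPM in young WT, 55.1, 64.3, 59.7, 65.8 and 64.0 CPM in old WT and 60.4, 71.5, 74.4, 77.8 and 79.1 CPM in old KO libraries. Only young WT 6 lay within the old WT range. The change with age was −0.27 (SE 0.0913, adjusted p = 0.047), and 3 of the 15 fits with a library left out called it.

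Atp5a1, the only ATP synthase member that fell with age (chr18:78012468-78021608, plus strand), measured 1070, 1060, 997, 975 and 888 CPM in young WT, 780, 870, 845, 888 and 829 CPM in old WT and 821, 922, 902, 926 and 893 CPM in old KO libraries. The groups of WT mice met at 888 CPM. The change was −0.24 (SE 0.077, adjusted p = 0.0368), and it passed the threshold in 6 of 15 fits with a library left out.

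The 4 members whose CPM ranges did not overlap between young and old WT were all lower in old WT. This was 4.94% of the members, beside 11.4% of all genes tested (5.67% lower and 5.78% higher). All 4 were among the 38 complex I members tested, a share of 10.5%, near that of all genes in either direction. They were Ndufs1, Ndufs5 and, named after their values were seen, Ndufc1 (19.4 to 22.9 CPM in young WT and 16 to 18.4 CPM in old WT, adjusted p = 0.058) and Ndufs4 (47.9 to 53.8 CPM and 40.7 to 47.1 CPM, adjusted p = 0.123).

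**Figure D2:**
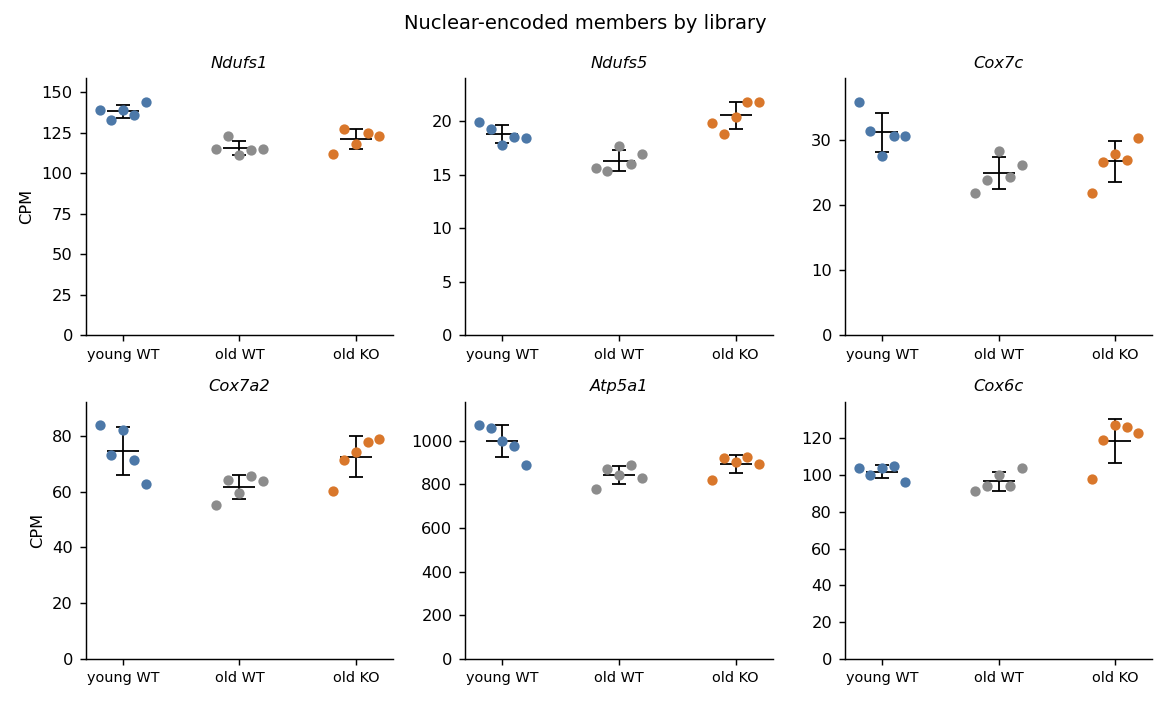
CPM of 6 nuclear-encoded members in each library (points, spread sideways for view) of young WT, old WT and old KO mice, with the group mean and SD of 5 animals as bars, each axis from 0. Ndufs1 lies at 133 to 144 in young WT and 111 to 127 in the old groups, while Ndufs5 is lowest in old WT at 15.3 to 17.7.

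By complex, the median change with age lay between −0.11 and −0.09. In complex I it was −0.09, with 2 of 38 members called lower and 27 below 0. Among its subunits, the 7 core ones that bind the cofactors had a median of −0.12 and the 29 accessory ones a median of −0.06. In complex II it was −0.10 with no call, since Sdha (the flavoprotein that oxidizes succinate) had a change of −0.00 (adjusted p = 0.995), Sdhb (its iron-sulfur partner) −0.19 (adjusted p = 0.163), Sdhc 0.03 (adjusted p = 0.799) and Sdhd −0.21 (adjusted p = 0.0745), the latter pair being the membrane anchors. Sdhd alone (1 of 4) had an unadjusted p under 0.05. In complex III the median was −0.10 with 0 of 8 called and 0 at an unadjusted p under 0.05. In complex IV it was −0.10 with 13 of 14 below 0 and 2 called, and in complex V −0.11 with 14 of 17 below 0 and 1 called. Cox6b2 had the widest change of any member, −1.44 (SE 0.557, adjusted p = 0.081), at 0.172 to 0.816 CPM in young WT and 0.0356 to 0.513 CPM in old WT livers.

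Without young WT 6 and old KO 1, 18 members were called lower with age, of which 4 were among the 5 above, and the median was −0.15. In that setting 23.6% of all genes were called. Leaving out young WT 6 alone gave 13 (all genes, 22.8%), whereas leaving out young WT 1, young WT 2, old WT 1 or old WT 4 left 1 call each. Members were short genes, with a median exonic length of 1322 bases beside 3530 for all genes tested. With offsets for length and GC content, 21 members were called lower with age (all genes, 21.1% called) and the median was −0.17. Of 7 hepatocyte markers tested, 2 were called lower with age and the median was −0.52, whereas their summed level was 82900 to 133000 CPM in young WT and 90500 to 139000 CPM in old WT livers, with no marker at 0. Endothelial markers had 2 of 5 called lower (summed level 140 to 254 and 104 to 179 CPM, no marker at 0). Markers of T and NK cells had 3 of 6 called higher (median 1.1, summed level 2.17 to 4.43 and 2.7 to 9.75 CPM), those of B and plasma cells had 2 of 5 called higher (median 0.71, 2.9 to 6.06 and 7.6 to 40.0 CPM), and those of red blood cells lay above 0 in 5 of 5 with 0 called (median 0.65, 47.3 to 110 and 79.7 to 164 CPM). Macrophage markers lay above 0 in 7 of 8 with 0 called (median 0.33, 159 to 360 and 184 to 499 CPM). The part of length and of these markers in the change was not tested.

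**Figure D3:**
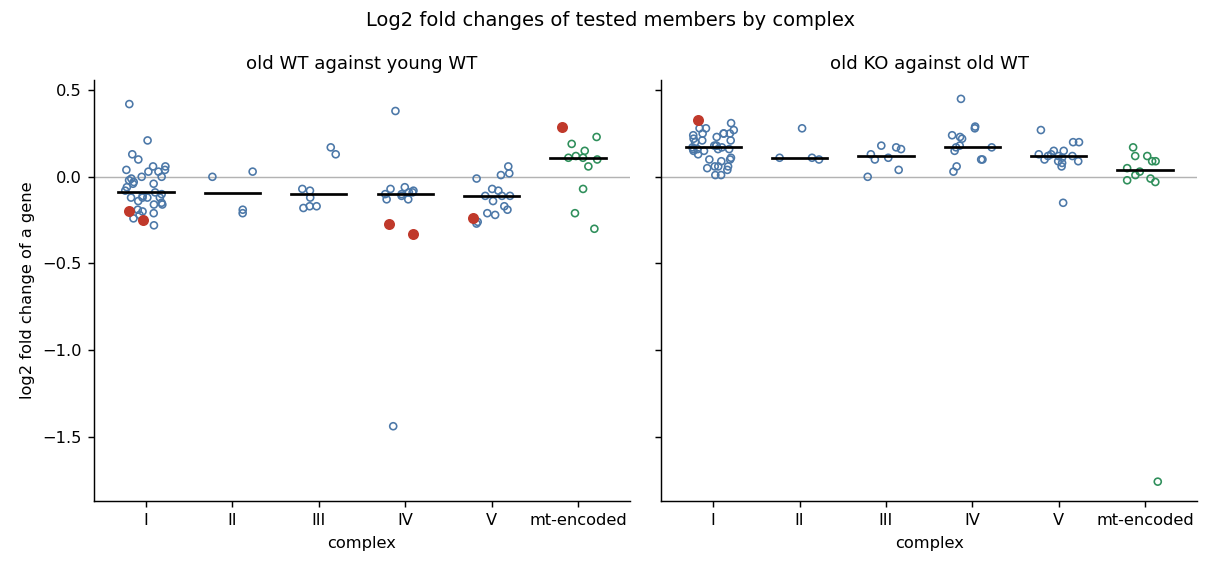
Log2 fold change of each tested member (circles, spread sideways for view) by complex, with age (left) and with genotype in old mice (right). Filled red points passed an adjusted p of 0.05 and lines are medians. With age the nuclear-encoded medians lie between −0.11 and −0.09, and with genotype between 0.11 and 0.18.

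Loss of S6K1 in old mice went with a small shift upward across the nuclear-encoded members, of which a single gene passed the test. Ndufs5 was higher in old KO than in old WT livers, 1 of 81 members tested (0 lower), where 0.533% of all genes were called (0.112% higher and 0.421% lower). The log2 fold change lay above 0 in 79 of 81 members (97.5%), where 50.2% of all genes did. Only Uqcrfs1 (−0.00) and Atp5s (−0.15) lay at or below 0. The median was 0.15 (range −0.15 to 0.45) beside 0.00 for all genes, and 25 members had an unadjusted p under 0.05, beside 11.6% of all genes. The members lay low together in young WT 6 and in old KO 1, so this count of directions does not stand for as many separate observations. In 3 members the old KO and old WT ranges were fully separate, and all 3 were higher in old KO (3.7% of members; 3.2% of all genes, 1.12% higher and 2.08% lower).

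Ndufs5, whose values are given above, rose by 0.33 (SE 0.0694, adjusted p = 0.0459), into a range (18.8 to 21.8 CPM) that overlapped that of young WT (17.8 to 19.9 CPM). This call was kept in 3 of 15 fits with a library left out and in 5 of 11 alternative settings, and the fold change stayed between 0.26 and 0.36 in those settings. The age and genotype comparisons of Ndufs5 share the old WT libraries, and a low value there enters both.

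The other members without overlap were Sdhb and, named after its values were seen, Atp5c1. Sdhb measured 120, 127, 139, 136 and 121 CPM in old WT and 142, 173, 163, 166 and 140 CPM in old KO libraries, a change of 0.28 (SE 0.0934, adjusted p = 0.216). Atp5c1, the gamma subunit that turns inside the catalytic head, measured 196 to 220 CPM in old WT and 224 to 255 CPM in old KO libraries, a change of 0.20 (SE 0.0639, adjusted p = 0.202). Neither passed the test.

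Cox6c, a small subunit of complex IV (chr15:35855641-35868001, minus strand), had the next lowest p after Ndufs5. It measured 104, 100, 104, 105 and 96.4 CPM in young WT, 91.4, 93.9, 100, 94.1 and 104 CPM in old WT and 97.9, 119, 127, 126 and 123 CPM in old KO libraries. All old KO libraries but old KO 1 lay above every WT library. The change with genotype was 0.29 (adjusted p = 0.0967). Without young WT 6 and old KO 1 it was 0.35 (adjusted p = 0.0294), and Cox6c was then the 1 member called, in place of Ndufs5. In that setting 80 of 81 members lay above 0 and the median was 0.20. Cox6c shares 5343 bases with Vps13b on the opposite strand.

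By complex, the median change with genotype was 0.17 in complex I (38 of 38 above 0), 0.11 in complex II (4 of 4), 0.12 in complex III (7 of 8), 0.18 in complex IV (14 of 14) and 0.12 in complex V (16 of 17). Within complex I, the 29 accessory subunits had a median of 0.18 and the 7 core subunits a median of 0.06. The isoforms that are abundant in liver had changes of 0.10 for Cox4i1 (adjusted p = 0.687), 0.15 for Cox6a1 (0.591) and 0.17 for Cox6b1 (0.483). The changes were 0.23 for Cox7a2 (0.311), 0.18 for Cox8a (0.626) and 0.22 for Ndufa4 (0.368). Cox7a2l, which has a similar name but is not one of these isoforms, had 0.03 (0.95). In complex II, Sdha had 0.10 (0.675), Sdhc 0.11 (0.629) and Sdhd 0.11 (0.641).

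**Figure D4:**
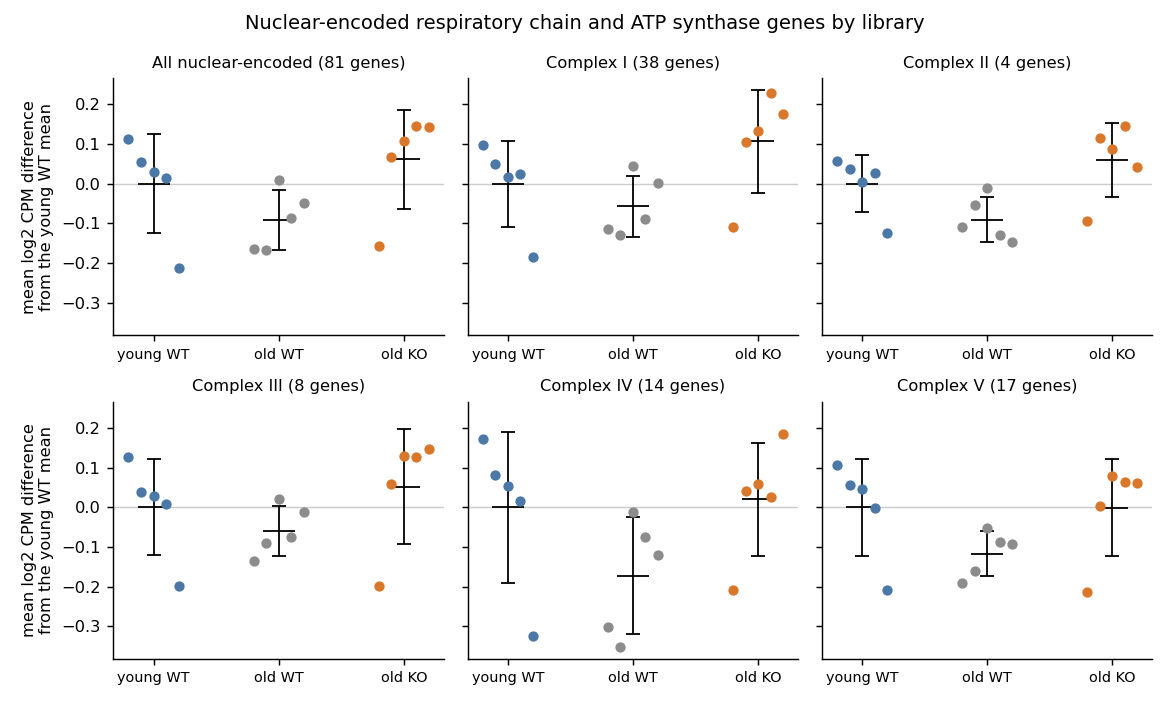
Mean log2 CPM of the tested nuclear-encoded members, as the difference from the young WT mean, in each library (points, spread sideways for view) for all 81 members and for each complex, with the group mean and SD of 5 animals as bars. The group means over all 81 are −0.091 in old WT and 0.061 in old KO, and young WT 6 (−0.212) and old KO 1 (−0.156) lie below the rest of their groups.

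Other measures moved with genotype beside these members. Scaling by library totals without TMM moved the median of all genes to −0.07, and with it 68 of 81 members lay above 0 with a median of 0.08. The slope of log2 CPM on log2 length across genes had a median of −0.0366 in old KO, 0.0172 in old WT and 0.0247 in young WT, but the groups overlapped, since old KO 1 had a slope of 0.0159, and old WT 5 (−0.0176) and old WT 10 (−0.0442) had slopes below 0. With offsets for length and GC content the median of the members was 0.16. All 8 macrophage markers lay below 0 in old KO against old WT (4 called lower, median −1.19), at a summed level of 184 to 499 CPM in old WT and 114 to 161 CPM in old KO livers. Hepatocyte markers lay above 0 in 7 of 7 (0 called, median 0.32), at 90500 to 139000 and 113000 to 147000 CPM. Red blood cell markers lay above 0 in 5 of 5 (0 called, 4 at an unadjusted p under 0.05, median 1.09), at 79.7 to 164 and 107 to 395 CPM. T and NK cell markers lay below 0 in 6 of 6 (0 called, median −0.71), at 2.7 to 9.75 and 1.93 to 6.29 CPM. B and plasma cell markers lay below 0 in 4 of 5 and above 0 in 1 (0 called, median −0.57), at 7.6 to 40.0 and 13.4 to 70.2 CPM. No marker of these lists was at 0. The part of these cell types in the shift of the members was not tested.

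Compared with young WT, old KO livers had 7 nuclear-encoded members higher and 2 lower (23.3% of all genes called, 12.0% higher and 11.3% lower), and the members were on both sides of 0. The log2 fold change lay above 0 in 58 of 81 (all genes, 49.4%) with a median of 0.08, which turned to −0.01 with offsets for length and GC content. At an unadjusted p under 0.05 there were 15, beside 36.8% of all genes. This comparison crosses age and genotype together.

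The members that were higher in old KO than in young WT included 5 complex I subunits. Ndufb8, an accessory subunit of the membrane arm (chr19:44623062-44629930, minus strand), measured 62.7, 60.0, 60.8, 55.8 and 50.8 CPM in young WT, 55.3, 58.1, 65.4, 61.2 and 61.6 CPM in old WT and 63.2, 70.2, 71.6, 71.2 and 69.3 CPM in old KO libraries. All old KO libraries lay above all young ones, by 0.25 (SE 0.0705, adjusted p = 0.0176). The second identifier of the same name overlaps it over 4260 bases.

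Ndufs8, a core iron-sulfur subunit near the site where ubiquinone is reduced, measured 43.7, 37.8, 42.5, 40.4 and 38.9 CPM in young WT, 42.6, 44.3, 46.5, 39.1 and 46.2 CPM in old WT and 43.8, 46.6, 52.1, 53.9 and 47.9 CPM in old KO libraries. The old KO and young WT ranges nearly touched (43.7 and 43.8 CPM), and the change was 0.26 (SE 0.0737, adjusted p = 0.0174). The accessory subunits Ndufa7 (0.37, adjusted p = 0.0291), Ndufb4 (0.31, adjusted p = 0.0273) and Ndufv3 (0.28, adjusted p = 0.0382) and the complex IV subunit Cox6c (0.22, adjusted p = 0.0455) were also higher. Cox7a1, at 0.259 to 0.684 CPM in young WT and 0.545 to 1.16 CPM in old KO, had the largest change (0.83, SE 0.28, adjusted p = 0.0425). Skeletal muscle markers summed to 0.29 to 0.58 CPM in young WT and 0.508 to 28.5 CPM in old KO livers. The highest sum was in old KO 6, where Cox7a1 was 1.11 CPM, close to the 1.16 CPM at the top of its group. The part of muscle RNA in the change of Cox7a1 was not tested. Ndufs1 (−0.19, adjusted p = 0.0288) and Atp5s (−0.41, adjusted p = 0.0482) were lower. Of 15 fits with a library left out, Ndufb8 was called in 15, Ndufs8 in 14, Ndufa7 in 12, Ndufb4 in 11 and Ndufv3 in 9. Cox6c was called in 3, Cox7a1 in 7, Ndufs1 in 11 and Atp5s in 4.

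Of the 81 members tested, 4.94% had ranges that did not overlap between old KO and young WT, beside 13.9% of all genes tested (7.32% higher and 6.56% lower). They were Ndufb8, Ndufs8 and Ndufv3 (higher) and Ndufs1 (lower), all among these 9 calls. Without young WT 6 and old KO 1, 6 members were higher and 0 lower (all genes, 22.8% called), and 5 of the 9 were among them.

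The mitochondrially encoded members took 9.85% ± 0.584 (SD, n = 5) of counts in young WT, 10.8% ± 0.356 in old WT and 10.8% ± 0.756 in old KO livers, and the nuclear-encoded members took 0.93%, 0.894% and 0.933%. The libraries were made from poly(A)-selected RNA, so transcripts without a tail may be under-counted in these shares. With age, mt-Co3 alone was called, as higher, among 12 tested (0 lower), beside 18.8% of all genes, and the median of the 12 was 0.11 (9 of 12 above 0), which turned to −0.04 with offsets for length and GC content.

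Mt-Co3 (chrM:8607-9390), a core subunit of complex IV, measured 10600, 10600, 11700, 11200 and 9660 CPM in young WT, 12300, 13200, 13100, 12600 and 14700 CPM in old WT and 13400, 12100, 13300, 13600 and 12600 CPM in old KO libraries. Every old library lay above every young one. The change with age was 0.29 (SE 0.097, adjusted p = 0.0444), it was 0.14 with offsets for length and GC content, and it passed the threshold in 4 of 15 fits with a library left out. Without young WT 6 and old KO 1 it was 0.26 and not called.

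Among the complex I subunits of the mitochondrial genome, mt-Nd5 measured 7170, 8800, 10300, 9180 and 7670 CPM in young WT and 6650, 6940, 6240, 7880 and 7370 CPM in old WT libraries, which overlap (−0.30, SE 0.128, adjusted p = 0.112). The change with age was −0.07 for mt-Nd1, 0.06 for mt-Nd2, 0.19 for mt-Nd3, 0.11 for mt-Nd4 and −0.21 for mt-Nd6, the only member read from the other strand, with adjusted p of 0.24 or more. It was 0.10 for mt-Cytb, the complex III subunit, 0.15 for mt-Co1 and 0.11 for mt-Co2. None of these passed the test.

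With genotype in old mice, 0 of the 12 mitochondrially encoded members were called (0.533% of all genes), and 0 had an unadjusted p under 0.05. DESeq2 and limma voom also called 0. The median was 0.04, and it was −0.02 with library totals and −0.04 with offsets, so no direction can be given. The lowest adjusted p was 0.543, in mt-Atp8 (−1.76, SE 1.05). That gene measured 24.1, 7.45, 183, 6.21 and 46.5 CPM in young WT, 6.19, 115, 2.39, 99.4 and 67.4 CPM in old WT and 29.5, 1.6, 38.2, 9.1 and 7.47 CPM in old KO libraries. The ranges of the 3 groups overlapped throughout.

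Between old KO and young WT, mt-Co1 and mt-Atp6 were higher, 2 of 12 (0 lower), beside 23.3% of all genes. Mt-Co1 (chrM:5328-6872) measured 21200, 22800, 24300, 24000 and 20800 CPM in young WT, 23700, 25400, 25400, 23200 and 27900 CPM in old WT and 30700, 27100, 29000, 29300 and 25600 CPM in old KO libraries. The old KO libraries lay above the young ones without overlap (0.32, SE 0.106, adjusted p = 0.0376). Mt-Atp6 (chrM:7927-8607), the proton channel subunit of ATP synthase, measured 1390, 1950, 1770, 1810 and 1690 CPM in young WT, 1930, 1990, 1910, 2110 and 2160 CPM in old WT and 2660, 1940, 2320, 2180 and 1870 CPM in old KO libraries (0.35, SE 0.112, adjusted p = 0.0328). With offsets for length and GC content the changes were 0.18 for mt-Co1 and 0.09 for mt-Atp6. Of 15 fits with a library left out, mt-Co1 was called in 4 and mt-Atp6 in 9. The ranges of mt-Co2 (0.20) and mt-Co3 (0.27) did not overlap either, without a call. Without young WT 6 and old KO 1, neither mt-Co1 nor mt-Atp6 was called (0.26 and adjusted p = 0.107 for each). The 1 of 12 called in that setting was mt-Nd3, as higher (0.37, adjusted p = 0.0326), beside 22.8% of all genes.

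**Figure D5:**
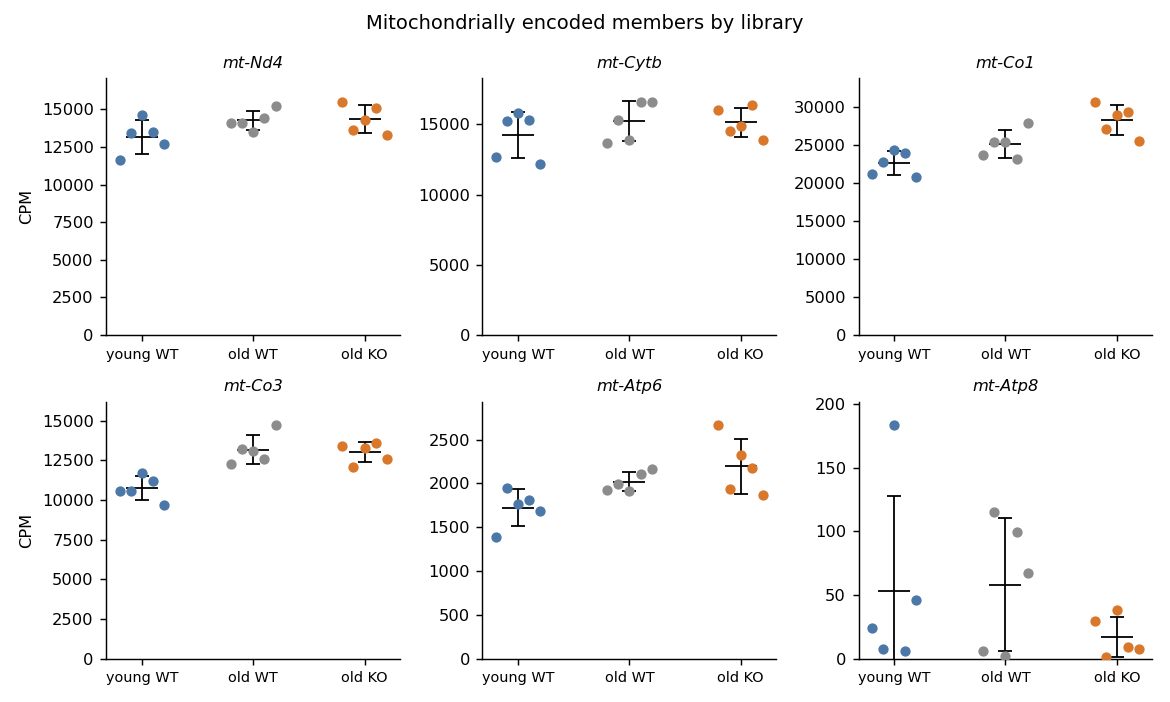
CPM of 6 mitochondrially encoded members in each library (points, spread sideways for view) of young WT, old WT and old KO mice, with the group mean and SD of 5 animals as bars, each axis from 0; the SD bars of mt-Atp8 run below 0 and are cut there. Mt-Co3 lies at 9660 to 11700 in young WT and 12100 to 14700 in the old groups, while mt-Atp8 runs from 1.6 to 183.

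Genes that serve the same system were described from further lists, whose counts of calls with age stand beside 18.8% of all genes called (9.92% higher and 8.91% lower). Among 23 regulators of mitochondrial biogenesis, 0 rose and 4 fell with age. They were the coactivators Ppargc1a (mean 39.8 CPM in young WT and 20.1 CPM in old WT, −0.98, SE 0.324, adjusted p = 0.0443), Ppargc1b (−0.68, adjusted p = 0.0457) and Pprc1 (−0.76, adjusted p = 0.0018), and Gabpb1, the partner of the DNA-binding Gabpa (−0.39, adjusted p = 0.0164). The DNA-binding factors whose motifs were searched had changes of −0.18 for Nrf1 (adjusted p = 0.323), −0.04 for Gabpa (0.704) and −0.11 for Esrra (0.687), and, named after their values were seen, 0.19 for Yy1 (0.188) and 0.23 for Esrrg (0.67). Tfam, which packages the mitochondrial genome, had −0.01 (0.968), and Polrmt, its RNA polymerase, −0.22 (0.217). With genotype none of the 23 was called by edgeR (1 at an unadjusted p under 0.05), and Ppargc1a had a change of 0.08 (adjusted p = 0.962).

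Of 18 genes of electron carriers and ubiquinone synthesis, 4 fell and 1 rose with age. The only carrier protein among them was cytochrome c, encoded by Cycs, which fell (mean 99.0 CPM in young WT and 68.0 CPM in old WT, −0.54, adjusted p = 0.00971). The others make or help to make ubiquinone, namely Coq7 (−0.70, adjusted p = 0.0109) and, named after their values were seen, Coq6 (−0.32, adjusted p = 0.0345) and Pdss1 (−0.56, adjusted p = 0.0456), which fell, and Coq8b (0.43, adjusted p = 0.0334), which rose. Cyc1, the cytochrome of complex III that the naming rule does not reach, had a change of −0.23 (adjusted p = 0.159). In the tricarboxylic acid cycle, which supplies NADH and succinate, 6 of 14 genes fell and 2 rose (all genes, 8.91% lower and 9.92% higher), with Idh3a at −0.48 (adjusted p = 0.00185) and Dlst at −0.49 (adjusted p = 0.00464) and Suclg2 at 0.53 (adjusted p = 0.0029).

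Of 18 genes for mitochondrial RNA processing and stability, 5 fell and 0 rose (all genes, 8.91% lower), including Hsd17b10, a part of the mitochondrial RNase P (−0.82, adjusted p = 0.00528), and Lrpprc, which stabilizes mitochondrial messages (−0.30, adjusted p = 0.0074). Of 14 chaperones and proteases, 3 fell, with the lowest p in Hspe1 (−0.44, adjusted p = 0.006). Of 7 carriers and pores, 2 fell. Atpif1, the inhibitor of ATP synthase, rose by 0.56 (adjusted p = 0.0151), the single call among 6 genes of its list.

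Assembly factors were called in both directions with age, beside 18.8% of all genes. Of 15 for complex I, 2 rose and 2 fell, of 18 for complex IV, 2 rose and 2 fell, and none of the 4 for complex II and the 6 for complex III was called. Of 75 mitochondrial ribosomal protein genes, 2 rose and 6 fell (median −0.05; all genes, 9.92% and 8.91%). With genotype, no gene of these lists was called by edgeR (0.533% of all genes), and 0 to 3 genes per list had an unadjusted p under 0.05. The mitochondrial ribosomal protein genes lay above 0 in 61 of 75 with a median of 0.07, beside the median of 0.15 of the respiratory chain members.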

How the data were processed

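The authors isolated RNA from whole liver, made poly(A)-selected stranded libraries (TruSeq), sequenced single 50-base reads (HiSeq), mapped them to mm9 with TopHat (TopHat2 2.0.11 in the submitters' notes, which also name CASAVA and DESeq2 1.18.1) and deposited raw HTSeq read counts per gene. The annotation, the strand setting and the treatment of multi-mapped reads are not given in the sources used here, so counts of overlapping genes and of families with near-identical copies are uncertain. Symbols and positions came from GENCODE M1 (NCBIM37, 37205 of 37991 identifiers), and 211 of 214 list entries matched. Groups were read from sample titles.

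Counts were filtered with filterByExpr, scaled by TMM and fitted to all 15 libraries with edgeR 4.0.16 (glmQLFit, glmQLFTest, R 4.3.3; common biological coefficient of variation 0.189), with 3 contrasts and Benjamini-Hochberg adjustment. The script was tested on simulated counts. Exact tests used log2 of CPM plus 0.1. Alternatives were DESeq2 1.42.0, limma 3.58.1 voom, other scalings and filters, offsets for length and GC content, a replicate block and leaving out each library. DESeq2 was the authors' tool. Within groups, the 30 pairs of libraries differed beyond sampling noise (chi-square per degree of freedom 18.2 to 118).

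The members and lists were chosen with earlier results of these data known. Named genes were the mitochondrially encoded members, Sdha to Sdhd, isoform pairs, the most abundant member of a complex, up to 10 called members per contrast, fixed regulators and cytochromes, and up to 3 genes of lowest p per further list. The age and genotype contrasts share the old WT libraries, so no relation between them was computed.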

Additional observations from a re-analysis of the deposited data

Results flagged for a closer look

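In 8 cases, 1 library lay far from the other 4 of its group by Dixon's ratio, out of 120 groups of 5 libraries examined, where chance alone gives about 1 in 20. In young WT 6, Ndufa4 was at 169 CPM (188 to 195 in the others), Cox7a2l at 27.9 CPM (37.4 to 39.9) and Ndufa7 at 36.1 CPM (51.3 to 53.5). In old KO 1, Ndufb8 was at 63.2 CPM (69.3 to 71.6), Cox6c at 97.9 CPM (119 to 127) and the share of counts of the nuclear-encoded members at 0.846% (0.939% to 0.974%). In young WT 3, mt-Atp8 was at 183 CPM (6.21 to 46.5). In old WT 10, the mitochondrially encoded members took 11.4% of counts (10.5% to 10.7%).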

How the results depend on the processing

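The median change of the nuclear-encoded members kept its direction with age (−0.17 to −0.05) and with genotype (0.08 to 0.18) over the 11 alternatives, while counts of calls depended on the setting. The cause was not tested. With age, 5 nuclear-encoded members became 8 with DESeq2, 1 with library totals, 2 without the low-count filter, 21 with length and GC offsets, 3 when only the 10 compared libraries were fitted, with scaling without mitochondrially encoded genes or with upper quartile scaling, 18 without young WT 6 and old KO 1, and 1 to 13 with a library left out (over 1.5 times fewer without any young WT or old WT library except young WT 6, or without old KO 2, 4 or 5). With genotype, 1 became 3 with DESeq2 and 0 with library totals, voom, no filter, 10 libraries or upper quartile scaling, and 0 to 1 with a library left out (0 without young WT 1, 3 or 4, old WT 1, 4, 7 or 10, or old KO 2, 4, 5 or 6). Between old KO and young WT, 9 became 2 without the filter, 5 with 10 libraries and 2 to 10 with a library left out (5 or fewer without young WT 2, 3, 4 or 6 or old KO 2, 4 or 5). The mitochondrially encoded call with age became 0 without the filter, with 10 libraries or without both libraries, and 0 to 1 with a library left out (kept only without young WT 3, old WT 7, or old KO 1 or 6). The called gene was not always the same: over the 11 alternatives, mt-Co3 was called in 7 and mt-Nd5, as lower, in 1. The 2 calls between old KO and young WT became 5 with DESeq2, 0 without the filter or with 10 libraries, 1 without both libraries (mt-Nd3, not mt-Co1 or mt-Atp6), and 0 to 3 with a library left out (0 without young WT 1 or 4 or old KO 1, 4 or 5). In this comparison mt-Co1 and mt-Atp6 were each called in 7 of the 11 alternatives. Mt-Co3 was called in 3, mt-Co2 and mt-Nd3 in 1 each, and mt-Nd5 and mt-Nd6, as lower, in 1 each.

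The labels do not say whether the replicate numbers in the titles pair the mice. Deviations of 9 same-numbered pairs correlated at −0.153 to 0.077, which cannot exclude a shared litter or processing batch. A replicate block gave no calls: 0 members were called in every comparison, of either class. Leaving out the 5 members that current RefSeq symbols would not take, and adding the 3 they would, gave 0 higher and 5 lower with age and 1 higher with genotype.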

Other observations

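Other RNAs of the mitochondrial genome, named after their values were seen, were counted in the same libraries, which were poly(A)-selected. The small ribosomal RNA mt-Rnr1 rose with age in WT livers (0.78, adjusted p = 0.0422), where the large ribosomal RNA mt-Rnr2 had a change of 0.75 (adjusted p = 0.104). Young WT 6, at 642 CPM of mt-Rnr1, lay within the old WT range (518 to 654 CPM), and the other young WT libraries lay at 206 to 316 CPM. Of 22 mitochondrial tRNA genes, 15 were tested, and 4 were higher and 0 lower with age by edgeR, beside 9.92% of all genes higher and 8.91% lower. They were mt-Ti (1.39), mt-Tq (1.23), mt-Tc (1.03) and mt-Ty (1.12), of which mt-Ti lay low, at 0.153 to 0.474 CPM in young WT and 0.22 to 1.18 CPM in old WT. With genotype, mt-Tg was higher in old KO than in old WT livers (2.52, adjusted p = 0.029), the single call among the 15, beside 0.533% of all genes. Its level was low, at 0.476 to 1.58 CPM in old WT and 1.2 to 9.34 CPM in old KO, where old KO 1 (1.2 CPM) lay within the old WT range. Ucp2, an inner membrane carrier, had a change of −0.97 with genotype (adjusted p = 0.0659), the lowest adjusted p among the carriers and pores.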
